A study of Mus musculus with 6 samples.

Results

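The stomatin family of the mouse was followed in RNA-Seq libraries of the olfactory mucosa. Its members here are the 4 genes Stom, Stoml1, Stoml2 and Stoml3, taken by name after the transcripts of each gene were summed. They made up 4 of the 24661 genes and 5 of the 38041 transcripts in the files, and all 4 genes had counts in every mouse. Stoml3 was chosen by its measured log2 fold change between RTP1,2DKO and wild-type mice, as the marker of olfactory sensory neurons (OSNs) with the largest decrease, so its change in that contrast is described and not tested. Stom, Stoml1 and Stoml2 were added as its paralogs, not for their own change.

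RNA came from 3 wild-type and 3 RTP1,2DKO mice, each library from the dissected olfactory mucosa of 1 mouse, with the olfactory epithelium (OE) and the tissue around it, although the labels name OE alone. All mice were labelled C57BL/6 and 21 days old. The RTP1,2DKO mice were RTP1 and RTP2 -/-, both deletions made in the germ line, so that every cell of the animal carried them, whereas the wild-type mice carried neither. The mutant alleles were made in embryonic stem cells of a mixed 129 and B6 background and then backcrossed to C57BL/6. The methods describe the animals as littermates matched for sex. Total estimated counts ranged from 31125410 to 41636996 per mouse.

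Stomatins are membrane proteins. Most insert a short hairpin into the inner face of a bilayer, bind cholesterol and form oligomers that organize small membrane domains. Stoml3 is known from the cilia of OSNs, where odor transduction takes place, and from touch neurons, where it tunes mechanically gated channels. Stom is the band 7 protein of the red blood cell membrane and also occurs in many other cells. Stoml1 joins a stomatin domain to a sterol carrier domain and sits on late endosomes, and Stoml2 is a protein of the mitochondrial inner membrane.

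The genes lie on different chromosomes of GRCm38 (GENCODE M21). Stoml3 (ENSMUSG00000027744.4) is on chromosome 3 from 53488653 to 53508502 on the plus strand, and its main transcript has 7 exons. Stom (ENSMUSG00000026880.11) is on chromosome 2 from 35313986 to 35336976 on the minus strand, and Stoml1 (ENSMUSG00000032333.6) is on chromosome 9 from 58253164 to 58262520 on the plus strand. Stoml2 (ENSMUSG00000028455.15) is on chromosome 4 from 43027690 to 43031710 on the minus strand and overlaps a noncoding gene, Gm26643, on the plus strand. No 31-base word is shared among the 4 genes, and at least 99.2% of the words of Stoml3, Stom and Stoml1 are in no other GENCODE gene. For Stoml2 the share was 77%, with the rest found in Gm26643 and Gm5626, although its estimated counts were whole in all 6 mice, as were those of Stoml3. Those of Stom and Stoml1 were whole in 0 of the 6 mice. How many of their reads were divided among transcripts was not measured.

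The stretches before the starts of Stoml3 and Stom are shown because these were the members whose counts in the knockout lay below those of every wild-type mouse. Each is the 250 bases before the RefSeq start (GRCm38.p6), from chr3:53488457-53488706 on the plus strand for Stoml3 and from chr2:35337010-35337259 on the minus strand for Stom. Capitals mark the GC box GGGCGG on either strand, the only searched motif found in them.
Stoml3: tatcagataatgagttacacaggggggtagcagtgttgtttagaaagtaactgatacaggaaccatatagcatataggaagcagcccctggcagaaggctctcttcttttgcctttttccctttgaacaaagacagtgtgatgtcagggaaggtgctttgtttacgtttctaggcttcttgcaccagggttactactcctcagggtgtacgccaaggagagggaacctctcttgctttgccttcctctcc
Stom: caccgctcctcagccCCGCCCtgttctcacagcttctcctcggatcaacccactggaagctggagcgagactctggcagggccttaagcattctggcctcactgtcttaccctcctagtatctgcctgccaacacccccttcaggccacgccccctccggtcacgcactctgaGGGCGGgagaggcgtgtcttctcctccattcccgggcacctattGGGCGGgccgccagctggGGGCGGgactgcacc
The stretch of Stom was rich in G and C (65.2%), held 13 CpG dinucleotides and had 4 GC boxes. That of Stoml3 had 46.8% G and C, 2 CpG dinucleotides and no GC box. Those of Stoml1 and Stoml2 held 7 and 18 CpG dinucleotides, with 0 and 1 GC box. RefSeq and GENCODE starts differ, so the stretch of Stoml3 runs past its GENCODE start. That of Stoml2 lies inside its GENCODE gene. Over 32851 RefSeq promoters, the median stretch had 52.4% G and C and 6 CpG dinucleotides, 32.7% held a GC box and 29% had no more CpG dinucleotides than that of Stoml3. The other motifs searched on both strands were the O/E motif, known from OSN genes and found in 0.779% of all promoters, the homeodomain core TAATTA in 4.84% and the TATA box TATAAA in 12.4%. None of them was in these windows of the 4 genes, which says nothing about binding elsewhere.

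The genotype was visible in the deleted genes. Rtp1 had 13543 to 25301 normalized counts in the wild-type mice and 85.46 to 108.8 in the RTP1,2DKO mice. Rtp2 had 7157 to 9510 and 26.16 to 57.96. In each library both genes were on the side their label gives. Normalized counts here are estimated counts divided by the size factor of the library.

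Stoml3 RNA was present at 25.0% of its wild-type amount in RTP1,2DKO. Stoml3 had 13935, 18043 and 15206 normalized counts in wild-type replicates 1 to 3, compared with 4843, 3951 and 2982 in RTP1,2DKO replicates 1 to 3. Every RTP1,2DKO mouse lay far below every wild-type mouse, and the highest RTP1,2DKO mouse was replicate 1. The means were 15728 ± 2103 (SD, n = 3) and 3925 ± 930.8 (SD, n = 3), a ratio of 4.01 and a log2 fold change of -2.00 (standard error 0.17). No test is given, because this decrease is why Stoml3 was chosen. In whole tissue, fewer OSNs and less RNA per OSN cannot be told apart. Of 13900 genes with a mean of at least 100 normalized counts, 96 had a lower log2 fold change.

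Stom, the red cell and general membrane stomatin, fell as well. Wild-type replicates 1 to 3 had 44101, 37985 and 34544 normalized counts, compared with 17593, 17811 and 18574 in RTP1,2DKO replicates 1 to 3. The groups did not overlap, and the RTP1,2DKO mice lay close together. The means were 38877 ± 4841 (SD, n = 3) and 17993 ± 514.9 (SD, n = 3), so RTP1,2DKO had 46.3% of the wild-type amount. The log2 fold change was -1.11 (standard error 0.13, 95% interval -1.39 to -0.83, edgeR adjusted p = 0.00029, by the quasi-likelihood test over all genes). In that test 697 of 22152 genes were lower in RTP1,2DKO with an adjusted p under 0.05, or 3.15%, and 102 were higher, or 0.46%. With the replicate number as a block, 816 were lower and 196 higher, and the call of Stom did not change. Of all genes tested, 9.24% had every RTP1,2DKO mouse below every wild-type mouse, as Stom and Stoml3 had, and 7.17% had every RTP1,2DKO mouse above.

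Stoml1, the endosomal stomatin, did not pass the threshold. It had 2270, 3103 and 2658 normalized counts in the wild-type and 1919, 2655 and 2309 in RTP1,2DKO. Both groups overlapped, and replicate 2 was the highest and replicate 1 the lowest in each. The log2 fold change was -0.22 (standard error 0.15, 95% interval -0.55 to 0.10, edgeR adjusted p = 0.67), an interval that reaches from 0.684 to 1.07 times the wild-type amount.

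Stoml2, the mitochondrial stomatin, was the least abundant member and gave no call either. Its normalized counts were 291.7, 231.8 and 261.3 in the wild-type and 246.6, 245.1 and 326.3 in RTP1,2DKO. The highest and the lowest value of all 6 mice came from opposite genotypes, with the highest in RTP1,2DKO mouse 3. The log2 fold change was 0.06 (standard error 0.18, 95% interval -0.34 to 0.46, edgeR adjusted p = 0.95). Changes between 0.791 and 1.37 times the wild-type amount lie inside that interval.

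**Figure D1:**
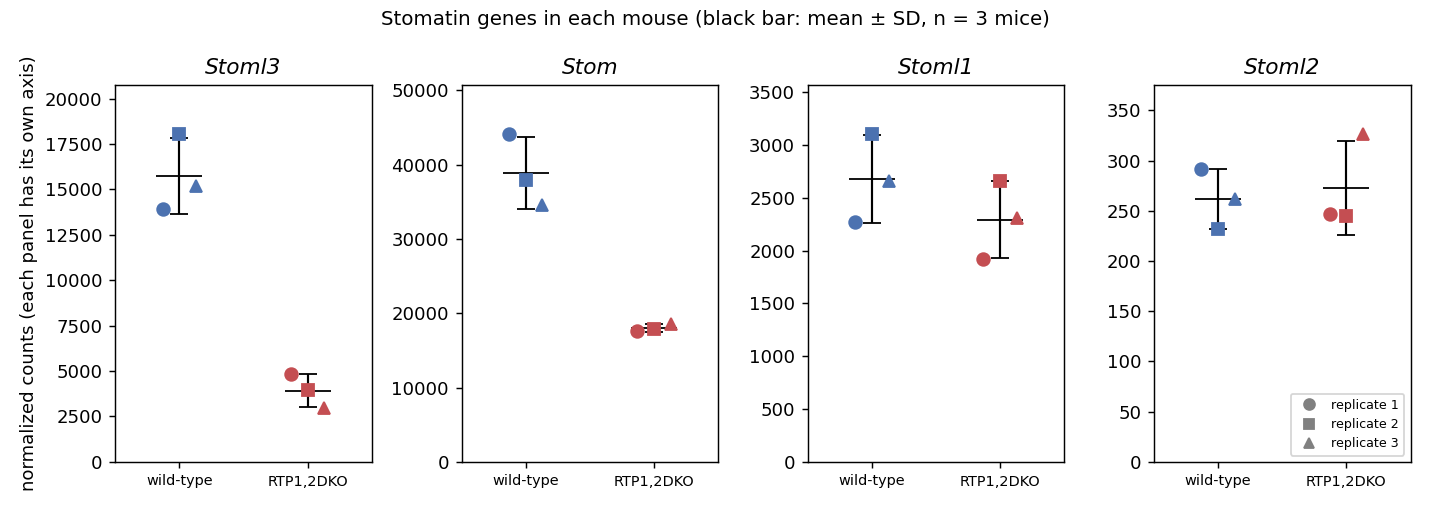
Normalized counts (y axis, starting at 0, a separate scale for each gene) of the 4 stomatin genes in wild-type (blue) and RTP1,2DKO (red) mice, with a symbol for each replicate number and black bars for the mean ± SD of 3 mice. The groups are apart for Stoml3 (13935 to 18043 against 2982 to 4843) and Stom (34544 to 44101 against 17593 to 18574) and overlap for Stoml1 and Stoml2.

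Whether the paralogs differed from each other in their change was tested on ratios within each mouse. The log2 ratio of Stom to Stoml2 was 7.24, 7.36 and 7.05 in the wild-type and 6.16, 6.18 and 5.83 in RTP1,2DKO, a difference of -1.16. For Stom to Stoml1 it was 4.28, 3.61 and 3.70 against 3.20, 2.75 and 3.01, a difference of -0.88. In both ratios every RTP1,2DKO mouse lay below every wild-type mouse (two-sided exact permutation, p = 0.1, and 0.15 after adjustment over the 3 pairs). With 3 mice per group this test cannot give a p below 0.1, so the design cannot reach the threshold. The ratio of Stoml1 to Stoml2 overlapped between the groups, with a difference of -0.28 (exact permutation test, p = 0.5, adjusted p = 0.5). The ratios of Stoml3 to its paralogs were not tested, since Stoml3 was chosen for its decrease, which biases them toward lower values in RTP1,2DKO.

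Per unit of length, Stoml3 was the most abundant stomatin RNA of the wild-type mucosa on the deposited TPM scale, which divides by the effective length of a transcript. It had 1562, 2154 and 1183 TPM in wild-type mice 1 to 3 and ranked 45, 44 and 52 among all 24661 genes. Stom followed with 677.7, 621.6 and 368.4 TPM. Stoml1 had 39.29 to 71.35 TPM, and Stoml2 had 6.241 to 10.04. No neighbours in this order overlapped in the wild-type. In RTP1,2DKO, Stoml3 had 504.6, 327.8 and 223.5 TPM and ranked 163, 209 and 294. Stom had 251.3, 202.5 and 190.8 TPM there, so that the ranges of Stoml3 and Stom met, while Stoml3 was still the higher of the pair within each mouse. The share of Stoml3 in the TPM of the 4 genes was 68% to 75.4% in the wild-type and 49.1% to 62.9% in RTP1,2DKO. That of Stom was 21.8% to 29.5% and 31.3% to 41.9%.

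The order of Stoml3 and Stom depended on which length was used. The Stoml3 transcript in the files has 864 bases, which equals the GENCODE coding length with its stop codon, whereas the GENCODE transcript has 1780 bases. Its model in the files is thus as long as the coding part alone, and its effective length of 309.804 bases was 35.9% of the 864 bases, against 80.3% for Stom. Per kilobase of the transcript length in the files, Stoml3 had 15591, 21888 and 15963 estimated counts in the wild-type and Stom had 15140, 14138 and 11126. The wild-type ratio of Stoml3 to Stom was therefore 1.03, 1.55 and 1.43 on this scale, compared with 2.31, 3.47 and 3.21 in TPM. In RTP1,2DKO it was 0.897, 0.723 and 0.523, with Stom the more abundant in all 3 mice, compared with 2.01, 1.62 and 1.17 in TPM. Both scales count reads on the coding part of Stoml3, so neither is a level per length of the whole GENCODE transcript. The same length applies to both genotypes, so the comparison of Stoml3 between them does not depend on it.

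**Figure D2:**
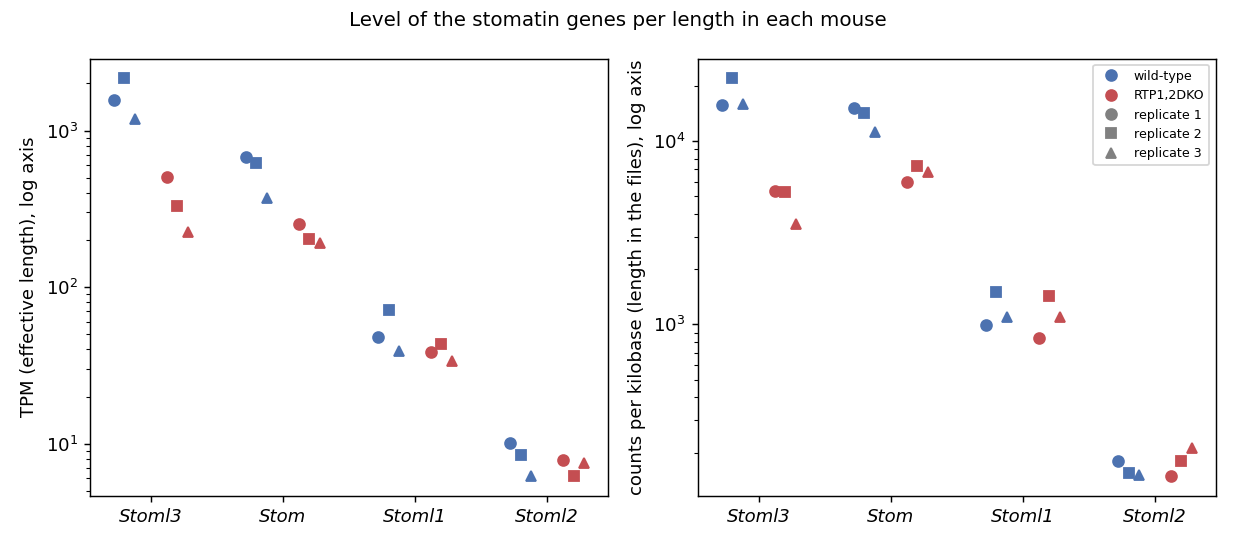
Level of the 4 stomatin genes in each mouse (blue wild-type, red RTP1,2DKO, symbols for replicate numbers) as deposited TPM (left, log axis) and as counts per kilobase of the transcript length in the files (right, log axis). In TPM, Stoml3 is above Stom in all 6 mice, and per kilobase of the transcript length in the files it is below Stom in the 3 RTP1,2DKO mice.

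Stoml1 was the only member with more than 1 transcript in the files, of 2004 bases (Stoml1) and 2284 bases (Stoml1_1). The files do not tie them to an accession. Kallisto divides reads between overlapping transcripts, so the split carries an error that was not measured here. Stoml1_1 had 1714, 1898 and 1820 normalized counts in the wild-type and 1196, 1305 and 1237 in RTP1,2DKO. The groups did not overlap, and the mean in RTP1,2DKO was 68.8% of the wild-type. The shorter transcript had 531.2, 1190 and 816.9 against 706.0, 1338 and 1058, with overlapping groups. The share of Stoml1_1 in the estimated counts of the gene was 76.4%, 61.5% and 69.0% in the wild-type and 62.9%, 49.4% and 53.9% in RTP1,2DKO. Within each replicate number the RTP1,2DKO mouse had the lower share, but the groups overlapped.

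In a fit over all 33023 transcripts with counts, the log2 fold change was -0.54 for Stoml1_1 (standard error 0.08, edgeR adjusted p = 0.16) and 0.29 for the shorter transcript (standard error 0.36, edgeR adjusted p = 0.91). Neither passed the threshold. That fit called 8 transcripts, or 0.0242%, of which 7 were lower in RTP1,2DKO, or 0.0212%. Stom, which has 1 transcript and so the same reads as in the fit over genes, had a log2 fold change of -1.11 with an edgeR adjusted p = 0.10 there. Among all transcripts, 8.1% had every RTP1,2DKO mouse below every wild-type mouse, as Stoml1_1, Stom and Stoml3 had.

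**Figure D3:**
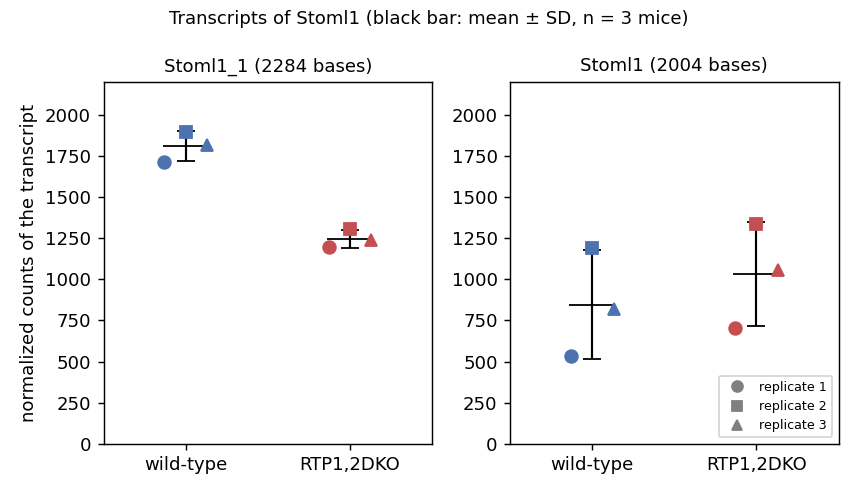
Normalized counts (y axis, starting at 0) of the transcripts Stoml1_1 (left) and Stoml1 (right) in wild-type (blue) and RTP1,2DKO (red) mice, with black bars for the mean ± SD of 3 mice. Stoml1_1 lies at 1714 to 1898 in the wild-type and 1196 to 1305 in RTP1,2DKO, and the shorter transcript overlaps between the groups.

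Stoml3 and Stom were set beside 13 genes known as markers of mature OSNs, Stoml3 among them. Of the 12 others, 9 fell, none rose and 3 did not pass the threshold, beside 3.15% of all genes that fell. Their median log2 fold change was -1.05, compared with 0.02 over all genes tested. Stoml3, at -2.00, was followed by Adcy3, the adenylate cyclase of odor transduction, at -1.41 (edgeR adjusted p = 4.8e-05). How the marker list behind the choice of Stoml3 was drawn up is not known. Stom, at -1.11, lay between the cyclic nucleotide-gated channel subunits Cnga4 at -1.18 and Cngb1 at -1.09. Omp, the olfactory marker protein, had a log2 fold change of -0.90 and Gnal, the olfactory G protein alpha subunit, one of -0.94. The markers that did not pass were Kirrel2 (-1.19), Gng13 (-0.76) and Calb2 (0.43). With the replicate block, which takes same-numbered mice as pairs, 11 of the 12 fell, with Kirrel2 at -1.23 (edgeR adjusted p = 5.6e-05) and Gng13 at -0.72 (edgeR adjusted p = 0.029) among them. None of the 13 was at 0 in any mouse.

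**Figure D4:**
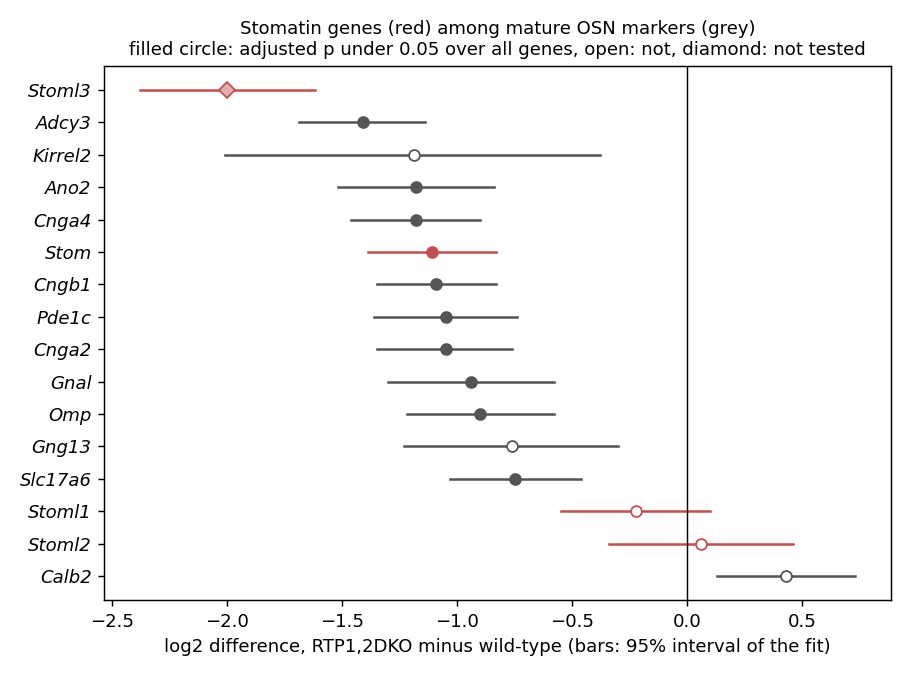
Log2 difference between RTP1,2DKO and wild-type (x axis) with its 95% interval for the stomatin genes (red) and mature OSN markers (grey), ordered by size, with filled circles for genes past the threshold, open circles for the others and a diamond for Stoml3, which was not tested. The interval drawn for Stoml3 does not allow for its choice by this same decrease and is not a test. Stoml3 stands at -2.00, Stom at -1.11 within the range of the markers that fell, and Stoml1 (-0.22) and Stoml2 (0.06) near 0.

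The ratios of Stoml3 to other OSN genes within each mouse are a description, since the choice of Stoml3 as the marker with the largest decrease makes them lower in RTP1,2DKO on average. The ratio of Stoml3 to Omp normalized counts was 0.207, 0.301 and 0.227 in the wild-type and 0.175, 0.108 and 0.0753 in RTP1,2DKO. Relative to Cnga2, the ratio was 0.770, 0.850 and 0.937 against 0.524, 0.414 and 0.374. The ratio to Adcy3 overlapped between the groups, with 0.877, 1.39 and 1.2 against 0.952, 0.745 and 0.572. The ratio of Stom to Cnga2 was 2.44, 1.79 and 2.13 in the wild-type and 1.90, 1.87 and 2.33 in RTP1,2DKO, which overlapped, as did its ratio to Omp. Relative to Adcy3, Stom was higher in every RTP1,2DKO mouse, with 3.46, 3.36 and 3.56 against 2.78, 2.92 and 2.73. Adcy3 was the marker with the largest decrease after Stoml3 (log2 fold change -1.41, against -1.11 for Stom), which makes this ratio higher in RTP1,2DKO.

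Markers of the other cell types that the tissue holds were counted beside the stomatin genes. Summed normalized counts of 8 red blood cell genes, in which Stom protein is abundant, were 59330 to 97516 in the wild-type and 95522 to 176704 in RTP1,2DKO, so that the ranges met and the mean moved opposite to Stom. None of the 8 was at 0 in any mouse. Of the 8, 1 rose, beside 0.46% of all genes, and a list this short cannot be told from that share. It was the beta globin Hbb-bt, with a log2 fold change of 0.88 (edgeR adjusted p = 0.048, and 0.051 with the replicate block). Hbb-bs, with the most counts, had 0.76 (edgeR adjusted p = 0.084). Their median log2 fold change was 0.80. Without Stoml3, the 12 mature OSN markers summed to 169407 to 191832 in the wild-type and 89144 to 98721 in RTP1,2DKO, or 52.2% of the wild-type mean, and moved with Stom. Their part in the change of Stom was not tested.

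Of 6 immature OSN markers, 2 rose, beside 0.46% of all genes, and 3 rose with the replicate block. Gap43, a growth cone protein, had a log2 fold change of 0.58 (edgeR adjusted p = 0.042), and Gng8, a G protein gamma subunit of immature OSNs, had one of 0.91 (edgeR adjusted p = 0.010). The other 4 did not pass the threshold without the block, with log2 fold changes from -0.22 to 0.40. The median of the 6 was 0.29. The 6 genes summed to 31111 to 42394 in the wild-type and 40053 to 45675 in RTP1,2DKO. None of the 7 progenitor and basal cell markers, 4 sustentacular cell markers and 9 motile cilia markers passed the threshold, with median log2 fold changes of 0.30, 0.01 and -0.22. With the replicate block, the motile cilia gene Ccdc39 fell, with a log2 fold change of -0.42 (edgeR adjusted p = 0.044). The progenitor and basal cell markers summed to 6174 to 6763 in the wild-type and 6989 to 9192 in RTP1,2DKO, without overlap. The motile cilia markers, from the ciliated cells of respiratory epithelium, summed to 13576 to 20383 in the wild-type and 13285 to 14350 in RTP1,2DKO. The 4 sustentacular cell markers, from the supporting cells of the OE, summed to 129164 to 171766 and 138143 to 165926.

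**Figure D5:**
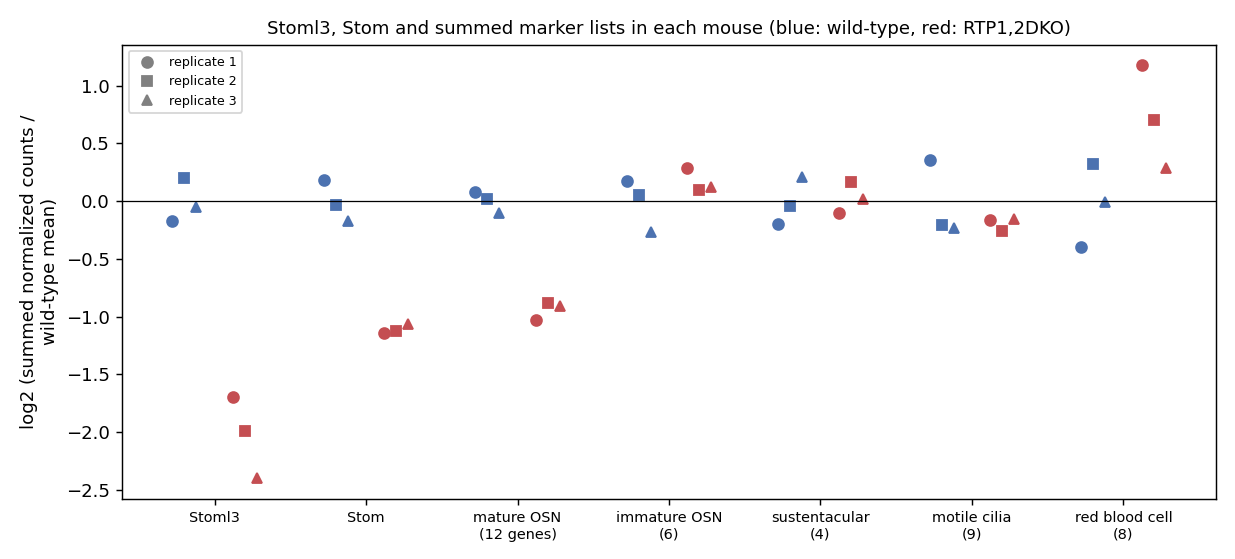
Log2 ratio (y axis) of Stoml3, Stom and the summed normalized counts of 5 marker lists in each mouse to the wild-type mean (blue wild-type, red RTP1,2DKO, symbols for replicate numbers, the mature OSN list without Stoml3). The RTP1,2DKO mice lie between -1.144 and -1.066 for Stom and between -1.028 and -0.881 for the mature OSN markers. For red blood cell genes they lie above 0 (0.289 to 1.177), but wild-type replicate 2 is at 0.319, so the groups overlap.

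Genes that share a fold or a partner with stomatins were counted against the 3.61% of all genes called in either direction, and lists this short cannot be told from that share. The stomatin domain also occurs in prohibitins (Phb, Phb2), flotillins (Flot1, Flot2) and erlins (Erlin1, Erlin2), and none of these 6 genes passed the threshold, with log2 fold changes between -0.15 and 0.31. The most abundant of them were Erlin2 and Flot2, at -0.15 and -0.01. Of 10 genes for membrane proteins linked to stomatins, among them acid-sensing and mechanically gated ion channels, 1 fell, Adcy3, and none rose. Slc2a1, the glucose transporter that Stom binds, had a log2 fold change of 0.43 (edgeR adjusted p = 0.11). Piezo2, a mechanically gated channel that Stoml3 can tune in touch neurons, had a log2 fold change of 0.15. The acid-sensing channel Asic1 had one of -0.13, and neither passed the threshold. Among 10 mitochondrial genes linked to Stoml2, with Phb and Phb2 counted again, none passed, and their median log2 fold change was 0.08. The most abundant in the wild-type were Yme1l1, an inner membrane protease, at -0.03 and Opa1, which fuses inner membranes, at -0.07.

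The genes whose pattern over the 6 mice was most like that of Stoml3 were sought among the 13899 others with a mean of at least 100 normalized counts, by Pearson's r of log2(normalized count + 1). With 3 mice in each genotype, r is set mostly by the gap between the groups. The highest were Orai2 (r = 0.999), a calcium channel subunit, and the odorant receptors Olfr332 (0.998), Olfr868 (0.996), Olfr430 (0.996) and Olfr693 (0.995). Orai2 had a much smaller gap between the groups, with 1134, 1159 and 1132 normalized counts in the wild-type and 938.9, 911.3 and 868.2 in RTP1,2DKO. Its log2 fold change of -0.33 was not past the threshold (edgeR adjusted p = 0.20). Olfr332 had 373.4, 460.8 and 400.2 against 101.2, 79.36 and 65.66, and a log2 fold change of -2.33. Stom had r = 0.941 and rank 331, Stoml1 had r = 0.501, and Stoml2 had r = -0.354.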

How the data were processed

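The authors dissected olfactory mucosa from 3 mice of each genotype and sequenced stranded libraries, named as a KAPA kit in the labels and as TruSeq in the methods. They assigned reads with kallisto (version not given in the sources used here) to UCSC mouse transcripts with extended OR annotations, and the labels name build mm10. The authors deposited, per transcript and mouse, estimated counts, which need not be whole, and TPM values, which they scaled to the same sum in every library. Strand settings are not given in the sources used here.

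Estimated counts were summed per gene and rounded. Genes with a count in any mouse were tested with edgeR 4.0.16 (glmQLFTest) in R 4.3.3, with size factors from DESeq2 1.42.0 (median of ratios) and Benjamini-Hochberg adjustment at 0.05 over all genes, and transcripts in the same way. Ratios within mice were compared by exact permutation tests in scipy 1.17.1. Fits were tested on simulated counts. With totals of at least 31125410 counts, counting error was small for all members but Stoml2. Deviations of same-numbered mice from their group means correlated at 0.139, 0.179 and 0.103 over 18133 genes. Those of differently numbered mice correlated at -0.219 to 0.0934, so the correlations alone do not settle the pairing. For the replicate block, the numbers of the labels, together with the littermates of the methods, were taken as pairs. The main fits and the exact permutation tests given here were unpaired. The paired fit was an alternative, beside TMM, filterByExpr, the DESeq2 Wald test, limma 3.58.1 on log2(TPM + 1) and each mouse left out. Levels per kilobase of deposited transcript length were added after seeing the data. The members, gene lists and motifs were chosen with earlier results of these data known. Named genes were the family, Rtp1 and Rtp2, in each list up to 4 genes past the threshold, and the 5 genes most like Stoml3. The most abundant genes were named in some lists only. Other genes named from the lists, among them Gng13, Kirrel2, Calb2, Ccdc39, Piezo2 and Asic1, were chosen after their values were seen. A further gene of the lists is not reported here. Promoters came from RefSeq and positions from GENCODE M21, and all 4 members were found by name in both.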

Additional observations from a re-analysis of the deposited data

How the results depend on the processing

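The decrease of Stom kept its direction under all alternatives of the fit over genes and passed the threshold in each of them but one, with log2 fold changes from -1.19 to -1.01 (adjusted p from 0.00025 to 0.0021, edgeR) with single mice left out. The exception was limma on log2(TPM + 1), which gave -1.33 (adjusted p = 0.16), called 31 genes in place of 799 and moved the median log2 fold change of genes with at least 100 normalized counts from 0.01 to -0.19. In the fit over transcripts Stom did not pass either (adjusted p = 0.10, edgeR). Stoml3 stayed between -2.18 and -1.84 without single mice, and Stoml1 between -0.34 and -0.10. The log2 fold change of Stoml2 changed sign and was -0.16 on TPM and -0.09 to 0.15 with a mouse left out, never past the threshold. The count of transcripts called depended most on the setting, with 20 after filterByExpr, 0 with the replicate block, where 2328 of 33023 had an unadjusted p under 0.05, and 0 to 1 with any mouse left out. The DESeq2 Wald test called 216 genes higher in RTP1,2DKO in place of 102. The replicate block changed no call of a stomatin gene. With the transcript lengths in the files in place of effective lengths, a choice made after seeing the data, the geometric mean ratio of Stoml3 to Stom was 1.32 in place of 2.95 in the wild-type and 0.698 in place of 1.56 in RTP1,2DKO. The number of mature OSN markers other than Stoml3 that fell was 9 to 11 with a mouse left out and 11 with the replicate block, in place of 9. The 3 mice per group limit the precision, and changes of Stoml1 or Stoml2 inside the given intervals remain compatible with the data.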
